A study of Mus musculus with 16 samples.

Results

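The genes described here encode the PAR polarity complex and 5 isoforms of protein kinase C (PKC). The 10 members are Prkci, Prkcz, Prkca, Prkcd, Prkch, Pard3, Pard3b, Pard6a, Pard6b and Pard6g, taken by name from the 31552 genes tested in sorted mouse skin epithelial cells. Every probe that the array files name for a member was read, 18 in all, and the brightest of a member's probes, by mean over 16 arrays, stands for it. All 10 members passed the filter on dim probes, which asked for a signal well above background on at least 2 arrays.

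In the PAR complex, the scaffold PAR3 and the adaptor PAR6 bind an atypical PKC, and the complex marks 1 side of a polarised cell. In basal keratinocytes this machinery is known for placing the mitotic spindle and for holding cell junctions together. Atypical PKCs, encoded by Prkci and Prkcz, do not respond to diacylglycerol, whereas the conventional isoform from Prkca and the isoforms from Prkcd and Prkch do.

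RNA came from hair follicle stem cells (HFSC), gated for high CD34 and ITGA6 without Sca1, and from interfollicular epidermis (IFE), gated for high ITGA6 and Sca1. HFSC were profiled in 6 conditions, each as 1 array labelled tHFSC and 1 labelled aHFSC, names that the labels do not spell out. The young conditions, at 12 weeks of age, were control WT (C57BL/6), Col17a1 cKO (Col17a1 flox/flox, K15crePR), aPKCλ cKO (aPKCλ flox/flox, K15crePR; aPKCλ is the product of Prkci) and hCOL17A1 tg. The aged conditions, at 25 to 26 months, were WT (C57BL/6) and hCOL17A1 tg. Both knockouts use a progesterone-receptor Cre under the keratin 15 promoter, so deletion needs RU486 and a cell in which that promoter is active. Control and knockout mice had 2.5 mg of RU486 on the skin for 5 days at 8 weeks, and no other sample's own label names RU486. Plucking of hair 3 days earlier is stated for aHFSC of control and Col17a1 cKO mice; for the other aHFSC only a protocol common to all samples mentions depilation. The 4 IFE arrays are WT (C57BL/6) and hCOL17A1 tg, each young and aged. The labels do not give the promoter of the hCOL17A1 transgene, nor whether an array stands for 1 mouse or a pool. No group has a second array, so p-values measure the scatter around an additive fit and not the variation between animals.

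Array quality bears on several members. Well-detected probes made up 74.0% to 80.0% on 14 arrays, and in the aged hCOL17A1 HFSC pair 69.1% (tHFSC) and 59.6% (aHFSC). Across genes, r of the IFE array from young hCOL17A1 mice with the other IFE arrays was 0.920 to 0.926, against up to 0.979 among those. The 2 arrays called standing apart below are aged hCOL17A1 aHFSC and this one. The file of the young control tHFSC array lacks some probes, among them those used for Prkca and Pard6b and the dimmer Prkcz probes, whose values there came from the deposited value table without a background flag. The 8 young HFSC arrays share slide 1 and the 4 aged HFSC and 4 IFE arrays share slide 2, so age in HFSC and slide cannot be told apart, and HFSC against IFE can be compared within a slide only in aged mice. The sort genes followed the gates, with levels given as log2 signal minus the array's 75th percentile. Cd34 levels were 5.48 to 6.44 in tHFSC, 3.54 to 5.11 in aHFSC and -6.45 to 0.32 in IFE. Ly6a (Sca1) levels were -4.85 to 1.02 in HFSC and 3.28 to 4.23 in IFE. The Cd34 ranges of tHFSC and aHFSC did not overlap, and the part of this in differences between the states was not tested. In such bulk samples, fewer cells that express a gene and less RNA per cell cannot be told apart.

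The readout of a member depends on where its probe sits, so the probes behind the main results are shown first. Each is 60 bases long, the first 30 bases are printed as the files give them, and positions are on build mm9 as in the files. Whether a probe lies in coding sequence or in a UTR was not analysed here, but its first base on the transcript it is annotated to is given.
Prkci: gatgggtgtctagttatctgtgtccctgtt
Prkcz, from base 4143: agacactggtgacttcatgattgtaactcg
Prkcz, from base 1891: tgatgaggacgtcataaagaggatcgacca
Prkcz, from base 376: cctcaagtgggtggacagtgaaggtgaccc
Prkca, from base 8284: tccgtttgcatgatccgctctgttagatgc
Prkca, from base 3423: cttgctagaaggattttaatatgttttgcg
Pard6b: ttttcactggaaagatctaagcctggaaaa
The Prkci probe starts at base 4305 of its transcript and lies at chr3:30951503-30951562 on the plus strand. The Prkcz probes lie on the minus strand at chr4:154634335-154634394, chr4:154636587-154636816 and chr4:154730589-154731612. The last 2 of these intervals, 230 and 1024 bases, are longer than the probe, so those probes cross a junction between exons. The Prkca probes lie on the minus strand at chr11:107794726-107794785 and chr11:107799587-107799646. The Pard6b probe starts at base 377 and lies at chr2:167912863-167912922 on the plus strand.

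Prkci, the atypical kinase targeted in the aPKC cKO, was well above background on all 16 arrays. With tHFSC first, its level was 4.23 and 4.37 in control and 3.44 and 3.28 in the aPKC cKO. It was 4.39 and 3.996 in the Col17a1 cKO, 4.10 and 3.60 in young hCOL17A1, 4.51 and 4.03 in aged WT, and 5.01 and 4.99 in aged hCOL17A1. In IFE it was 3.83 in young WT, 4.93 in young hCOL17A1, 3.93 in aged WT and 3.82 in aged hCOL17A1. The 2 aPKC cKO arrays were therefore the lowest of the 16, and 3 of the hCOL17A1 arrays were the highest. In the order of levels, the residual scatter of the fit (SD 0.30) was exceeded by 1 of 15 gaps, that of 0.42 below the 3 highest arrays; the gap above the aPKC cKO arrays was smaller than that scatter. The 3 highest arrays include the pair with the fewest detected probes and the IFE array that stands apart, and the part of this in the Prkci level was not tested.

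The fitted difference of Prkci between aPKC cKO and control was -0.94 ± 0.30 (SE), lower in 2 of 2 pairs, and did not pass (limma, adjusted p = 0.9997). The deleted stretch of Prkci is not given in the labels, so whether the probe can serve as a check of the knockout is not known. For Prkcz, the other atypical isoform, the difference was -0.42 ± 0.94 with 1 of 2 pairs higher. Its probe from base 1891 gave -1.95 ± 1.06, lower in 2 of 2 pairs, of which 1 was well measured on both sides.

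Prkca, the conventional isoform, had the lowest levels of its probe in the same 2 arrays. Its level was -0.30 in aPKC cKO tHFSC and -1.04 in aPKC cKO aHFSC, against 1.80 and 1.16 in control and 1.76 and 1.83 in the Col17a1 cKO. It was 0.80 and 0.79 in young hCOL17A1, 1.04 and 0.79 in aged WT, and 1.70 and 2.89 in aged hCOL17A1. In IFE it was 0.95, 1.995, 0.08 and 0.06 in young WT, young hCOL17A1, aged WT and aged hCOL17A1. The cKO arrays lay below all 14 others. Of the 15 gaps in the order 4 exceeded the residual SD of 0.50, but the gap above the cKO arrays, 0.36, did not. The fitted cKO difference was -2.15 ± 0.48, with pair differences of -2.20 and -2.10, and it did not pass (adjusted p = 0.9997, unadjusted p = 0.00169). Against the Col17a1 cKO, whose mice carry the same Cre and had the same RU486, the difference was -2.46 ± 0.48 (adjusted p = 0.889). The labels state plucking for aHFSC of control and Col17a1 cKO mice but not for aPKC cKO aHFSC, and its part was not tested.

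The second Prkca probe, from base 3423, gave another picture. In the aPKC cKO it read 0.05 in tHFSC and -2.43 in aHFSC, against -0.35 and -0.84 in control. Its fitted cKO difference was -0.60 ± 0.74, with 1 of 2 pairs higher. Prkci and the brighter Prkca probe followed each other across arrays (Pearson r = 0.83, Spearman rho = 0.80, n = 16), the highest r among the 45 pairs of members. The value was 0.80 without the 2 arrays farthest from the Prkci median, those of aged hCOL17A1 HFSC, and 0.73 without the 2 aPKC cKO arrays (n = 14 each). With the second Prkca probe the Pearson r was 0.44. These correlations describe arrays that share scaling and detection, and no test was made of them.

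None of the 10 members was called in the aPKC cKO, where 0% of all genes passed at an adjusted p under 0.05; 2 members and 1088 genes had an unadjusted p under 0.05. The members' median difference was -0.37, against 0.04 over all genes, and 2 of 10 were positive, beside 53.9% of all genes. The Pard6b value of -1.84 ± 0.90 ran from -3.53 to -0.14 on leaving out 1 control array or the other, and the gene was not well above background in either aPKC cKO array, at -6.57 in tHFSC and -6.86 in aHFSC. Control aHFSC, at -3.32, was at least 2.59-fold above the floor of the cKO aHFSC array. The remaining 6 members differed by -0.44 (Pard3) to 0.42 (Prkcd), and the second Prkch probe by 1.53 ± 0.95.

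**Figure D1:**
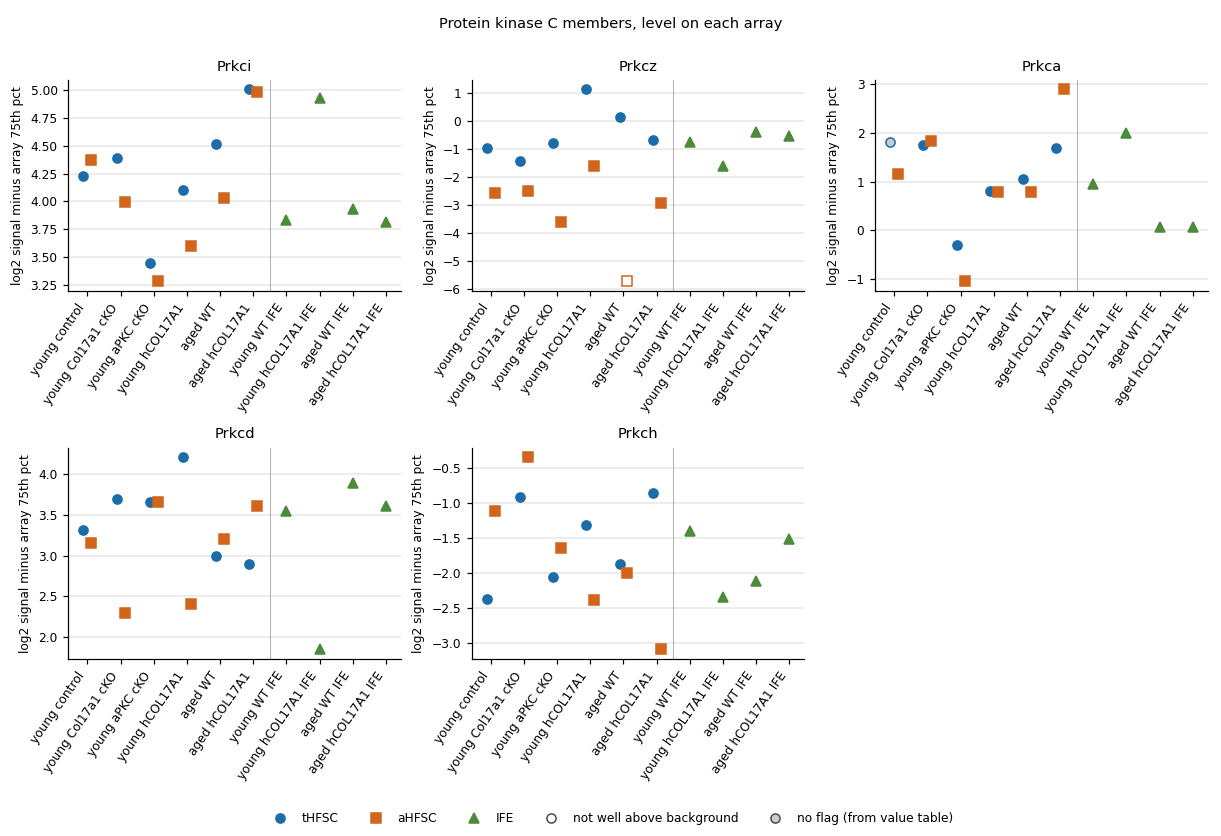
Level of the 5 protein kinase C members on each of the 16 arrays, as log2 signal minus the array's 75th percentile, each point 1 array. The 2 aPKC cKO arrays are the lowest for Prkci (3.44 and 3.28) and for Prkca (-0.30 and -1.04), and each aHFSC point of Prkcz lies below its tHFSC partner.

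Prkcz showed the widest range of any member, from -5.73 to 1.12, and the clearest division by cell state. In tHFSC its level was -0.97 in control, -1.45 in the Col17a1 cKO, -0.79 in the aPKC cKO, 1.12 in young hCOL17A1, 0.13 in aged WT and -0.70 in aged hCOL17A1. In aHFSC, in the same order, it was -2.60, -2.50, -3.63, -1.63, -5.73 and -2.93. IFE levels were -0.77, -1.60, -0.40 and -0.56 in young WT, young hCOL17A1, aged WT and aged hCOL17A1. All 6 tHFSC values lay above all 6 aHFSC values, and the 4 IFE values lay among the tHFSC values or just below them, still above aHFSC. The lowest IFE value was only 0.03 above the highest aHFSC value. Of the 15 gaps in the order 1 exceeded the residual SD of 1.09, that of 2.10 above aged WT aHFSC. The aged WT aHFSC value was not well above background, so with this probe aged WT tHFSC was at least 23.9-fold above it. Other probes of the gene did not show such a difference in that pair, as given below.

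The fitted aHFSC-minus-tHFSC difference of Prkcz was -2.72 ± 0.54, lower in 6 of 6 conditions with pair differences from -5.85 to -1.05. It did not pass over all genes (limma, adjusted p = 0.0788), and passed only with the normexp background correction (-1.45 ± 0.24, adjusted p = 0.0459); over the 28 alternatives the adjusted p ran from 0.0459 to 0.347. Without either aged WT HFSC array the difference was -2.10. On slide 1 alone it was -2.07 ± 0.37, and on slide 2 alone -4.04 ± 0.89. The markers of the upper follicle, 3 genes, were higher in aHFSC in 6 of 6 conditions (by 0.26 to 1.13 in mean level), and the 5 fibroblast markers differed by -1.67 to 0.38, lower in 5 of 6. The bulge list was lower in 5 of 6 and the epidermal list higher in 5 of 6, and the part of these in the state difference was not tested. Against IFE, aHFSC differed by -2.20 ± 0.64 (lower in 4 of 4 pairs, adjusted p = 0.104) and tHFSC by 0.53 ± 0.64.

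The other Prkcz probes did not share this division. The probe from base 1891 differed by 0.97 ± 0.61 between the states, higher in aHFSC in 4 of 6 conditions, and the probe from base 376 by -0.36 ± 0.43, higher in 2 of 6. Each was measured well above background on both sides in only 3 of the 6 conditions, against 5 for the brightest probe. Averaging the 3 probes gave a state difference of -0.70 ± 0.24 (adjusted p = 0.242). In the aged WT pair the probe from base 1891 read -2.88 in tHFSC and -1.84 in aHFSC, the opposite order of the brightest probe. The probe from base 376 read -3.16 and -3.85 there, and all 4 of these readings were well above background. In the aged hCOL17A1 pair the probe from base 1891 read -5.24 in tHFSC, not well above background, and -1.70 in aHFSC, again the opposite order. A Prkcz signal lower in aHFSC than in tHFSC in 6 of 6 conditions was thus measured with 1 of the 3 probes, that nearest the transcript's end. Against IFE the other probes were lower in aHFSC too. That from base 1891 differed by -0.60 ± 0.72, lower in 3 of 4 pairs. The probe from base 376 differed by -1.08 ± 0.50, lower in 4 of 4, and neither passed over all probes.

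**Figure D2:**
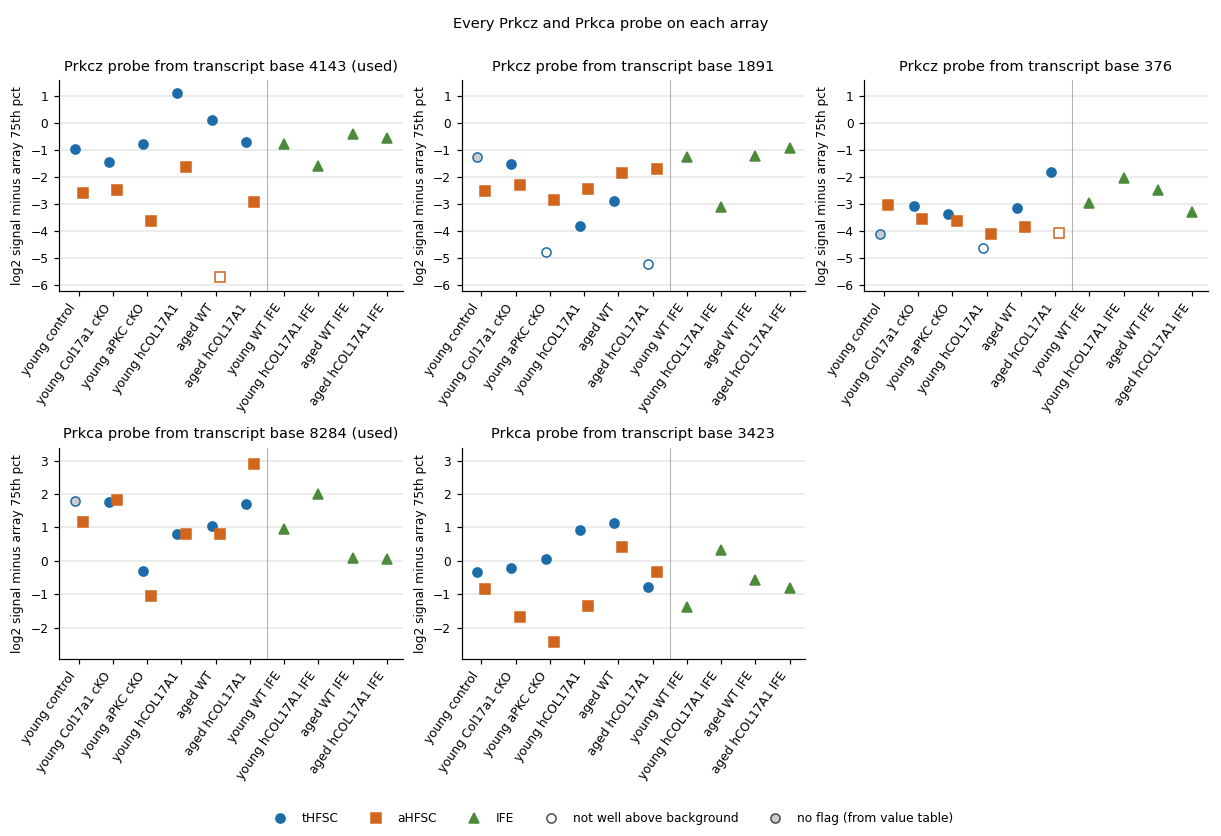
Level of every Prkcz and Prkca probe on each array, as log2 signal minus the array's 75th percentile, titled by the first transcript base of the probe. The aHFSC points lie below the tHFSC points in all 6 conditions for the Prkcz probe from base 4143 and in 2 of 6 for the probe from base 1891.

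None of the 10 members was called between aHFSC and tHFSC, where 0.539% of all genes passed (0.387% higher, 0.152% lower). An unadjusted p under 0.05 was found for 1 member (Prkcz) and for 3974 genes. The members' median difference was -0.28, against -0.09 over all genes, and 2 of 10 were positive, beside 39.9% of all genes. Prkci differed by -0.24 ± 0.18 and Prkca by -0.07 ± 0.28, while the second Prkca probe gave -1.16 ± 0.43, lower in 5 of 6 conditions (adjusted p over all probes = 0.322). Prkcd, whose product acts in keratinocyte differentiation and cell death, had levels of 2.30 to 4.21 in HFSC. Its state difference was -0.41 ± 0.35 overall. With that probe the pairs of the 4 young conditions were lower in aHFSC, with differences of -1.80 in young hCOL17A1 and -1.39 in the Col17a1 cKO and of -0.15 in control and under 0.01 in size in the aPKC cKO, and in the 2 aged conditions they were higher, by 0.21 in WT and 0.70 in hCOL17A1. The test of that difference between ages gave 1.30 ± 0.64 and did not pass (adjusted p = 0.825). The second Prkcd probe, well above background on all 16 arrays, had no such division: it was higher in aHFSC by 1.24 in control and lower in aged WT (-1.25), and its difference between ages was 0.03 ± 0.93. Prkch, an isoform of the differentiating epidermis, had levels of -3.08 to -0.34 with a state difference of -0.20 ± 0.44, higher in aHFSC in 3 of 6 conditions.

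Neither PAR3 gene passed between the states. Pard3 encodes the scaffold that recruits PAR6 and aPKC. With its brightest probe, tHFSC levels ran from 2.37 to 2.65 (median 2.50), aHFSC from 1.27 to 2.90 and IFE from 1.84 to 3.36. The probe from base 4296 is numbered on the same transcript as the brightest probe. Those from base 2693 and base 4118 are each numbered on another transcript, so these bases do not order the probes along the gene. In tHFSC the probe from base 2693 ran from -0.55 to 0.10, and the ranges were wider with those from base 4118 (-1.77 to 0.88) and base 4296 (-3.53 to 0.23). The state difference was -0.39 ± 0.26 with the brightest probe and -0.77 ± 0.31 with that from base 2693, lower in 6 of 6 conditions (adjusted p over all probes = 0.375), and it was 0.00 ± 0.31 and 0.04 ± 0.76 with the others. With the brightest probe the difference of aHFSC from IFE was -0.69 ± 0.30, lower in 4 of 4 pairs (adjusted p = 0.283). Of its 3 other probes, that from base 2693 differed by -1.29 ± 0.37 and that from base 4118 by -1.21 ± 0.36 between aHFSC and IFE, both with an adjusted p over 0.1 across all probes. Pard3b, a related scaffold, had levels of -2.79 to -0.56, lower in aHFSC than in IFE in 4 of 4 pairs (-0.66 ± 0.35, adjusted p = 0.374).

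Among the PAR6 genes, Pard6b was the only member that passed in any comparison. PAR6 links the active form of the GTPase CDC42 to aPKC. In IFE the Pard6b level was -1.01 in young WT, -0.93 in young hCOL17A1, -2.31 in aged WT and -1.75 in aged hCOL17A1, each well above background. In tHFSC it was -6.43 in control (no flag), -4.22 in the Col17a1 cKO, -6.57 in the aPKC cKO, -3.08 in young hCOL17A1, -3.91 in aged WT and -5.66 in aged hCOL17A1. In aHFSC, in the same order, it was -3.32, -5.49, -6.86, -2.02, -4.36 and -6.11. Well-measured values were 3 of 6 in tHFSC and 2 of 6 in aHFSC. The control tHFSC value, without a flag, lay below the lowest signal well above background held for its array, -4.44. No tHFSC value overlapped IFE, and 1 aHFSC value, that of young hCOL17A1, lay within the IFE range.

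Pard6b was lower in tHFSC than in IFE by a fitted -3.003 ± 0.61 (limma, adjusted p = 0.0229) and in aHFSC by -2.72 ± 0.61 (adjusted p = 0.0439), lower in 4 of 4 pairs each. As several HFSC values were at background, these differences are partly measured against background. Where both sides were well measured the pair differences were -2.15 in young hCOL17A1 and -1.60 in aged WT for tHFSC, and -2.30 in young WT against control and -1.09 in young hCOL17A1 for aHFSC. Where HFSC were at background, IFE was at least 5.39-fold (aged hCOL17A1 tHFSC), 4.13-fold (aged WT aHFSC) and 5.01-fold (aged hCOL17A1 aHFSC) higher.

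With normexp, which adds an offset of 50 and so shrinks dim signals, the Pard6b differences were -0.91 in tHFSC and -0.95 in aHFSC and passed. The tHFSC call was lost within slide 2 (-2.75 ± 0.45, adjusted p = 0.105) and with slide as a block (-3.65 ± 0.96, adjusted p = 0.0626). It was also lost without young hCOL17A1 tHFSC (adjusted p = 0.0772), aged WT tHFSC (0.0532), young WT IFE (0.0829), young hCOL17A1 IFE (0.109), aged WT IFE (0.109) or aged hCOL17A1 IFE (0.0827), and without the 2 arrays that stand apart (0.115). The aHFSC call was held without young control tHFSC, young control aHFSC or aged hCOL17A1 tHFSC and lost without each of the other 13 arrays (adjusted p up to 0.18). It was lost within slide 2 too (-3.21 ± 0.45, adjusted p = 0.0763).

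**Figure D3:**
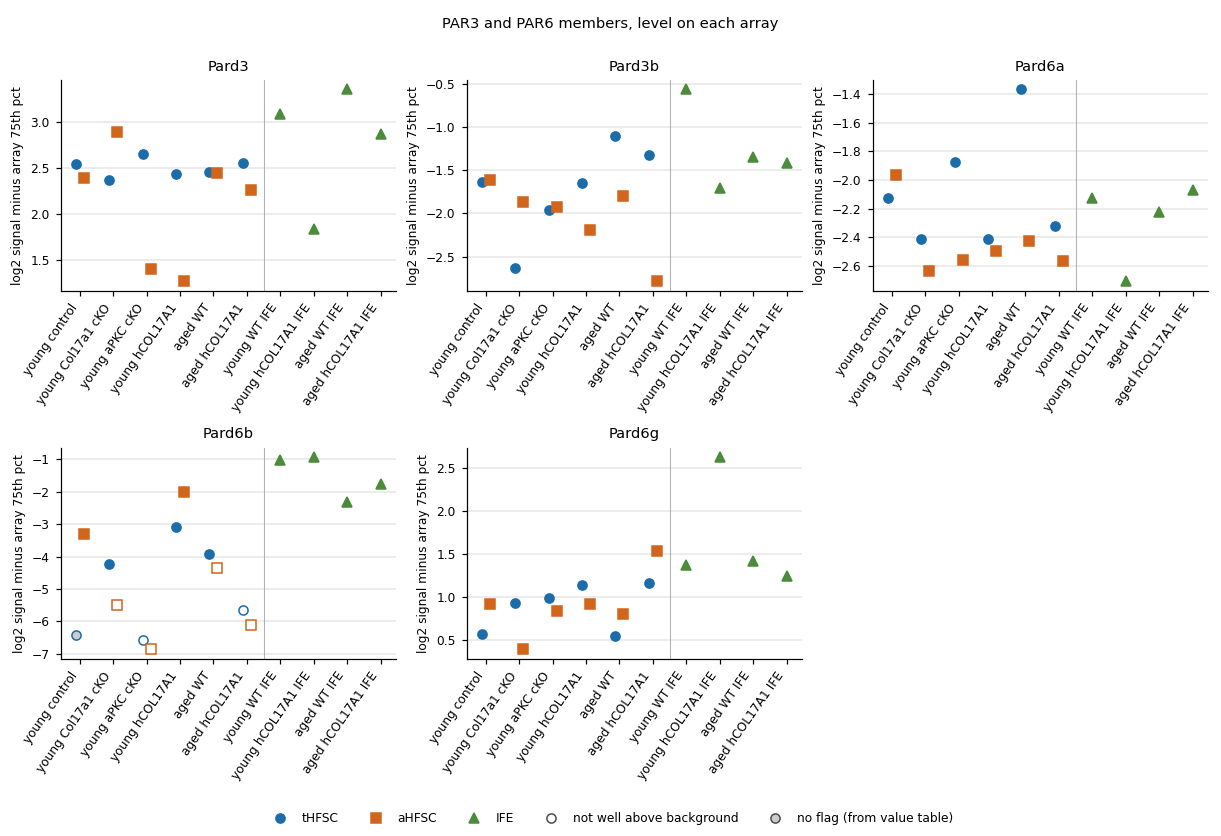
Level of the PAR3 and PAR6 members on each of the 16 arrays, as log2 signal minus the array's 75th percentile, each point 1 array, open where the probe was not well above background and grey where no flag was given. The 4 IFE values of Pard6b, from -2.31 to -0.93, lie above all 6 tHFSC values.

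The other PAR6 genes were measured on every array. Pard6g had levels of 0.55 to 1.16 in tHFSC, 0.39 to 1.53 in aHFSC and 1.24 to 2.62 in IFE. It was lower in tHFSC in 4 of 4 pairs (-0.72 ± 0.27, adjusted p = 0.164) and in aHFSC in 3 of 4 (-0.71 ± 0.27, adjusted p = 0.208). The highest value, 2.62, was that of the young hCOL17A1 IFE array that stands apart, 1.09 above the next array. Without it, or without aged WT IFE, the tHFSC difference was -0.37, and without young WT IFE or aged hCOL17A1 IFE it was -1.08 (adjusted p = 0.0528). Pard6a had the narrowest range over all 16 arrays, -2.70 to -1.37, with differences of 0.25 ± 0.25 for tHFSC and -0.11 ± 0.25 for aHFSC from IFE.

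Between HFSC and IFE, then, 1 of 10 members passed in each state, as lower. Of all genes 6.48% passed for tHFSC (2.11% higher, 4.38% lower) and 4.31% for aHFSC (1.63% higher, 2.68% lower). For tHFSC 665 genes passed as higher and 1381 as lower, and with quantile normalization 814 and 917; for aHFSC the counts were 515 and 846, and 606 and 607. The members' median difference was 0.14 for tHFSC and -0.43 for aHFSC, against -0.05 and -0.14 over all genes. Prkci differed from IFE by 0.35 ± 0.21 in tHFSC (adjusted p = 0.395) and passed under quantile normalization (0.69 ± 0.16, adjusted p = 0.0412). Leaving out young WT IFE or aged hCOL17A1 IFE brought it to 0.04, and leaving out either of the other two IFE arrays to 0.65. Prkcd gave 0.20 ± 0.41 in tHFSC with its brighter probe, at levels of 1.85 to 3.89 in IFE, but -1.59 ± 0.48 with the other. That second probe read -1.78 to 0.42 in tHFSC and 0.52 to 0.94 in IFE, ranges that do not overlap, and did not pass over all probes (adjusted p = 0.109).

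Markers of other cells moved with some of these groups. The 7 measured epidermal markers had a mean level of 6.25 to 6.74 in IFE and 2.33 to 5.70 in HFSC, and 6 or 7 of 7 were detected in HFSC. The 8 bulge markers had 3.88 to 5.14 in HFSC and -2.11 to -0.26 in IFE, highest there in young hCOL17A1 IFE. The 3 upper follicle markers had a mean level of 5.045 in young hCOL17A1 IFE and 2.80 to 3.10 in the other IFE arrays. In HFSC the upper follicle level was 2.93 to 4.25. The T cell list (3 of 4 genes measured) ranged from -1.02 to 1.77 in IFE, highest in young hCOL17A1 IFE, and from -3.09 to 0.74 in HFSC. The myeloid list of 7 ranged from -1.35 to -0.27 in IFE and -1.74 to 0.92 in HFSC. On no array were all markers of a list at background, and the part of these cells in the members' values was not tested.

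The hCOL17A1 transgene and age passed for no member. In young HFSC (0% of all genes passed) Pard6b differed by 2.32 ± 0.90 and Prkcz by 1.53 ± 0.94 from control, both higher in 2 of 2 pairs, with adjusted p of 0.691 and 0.821. The Pard6b value was 0.63 without control tHFSC and 4.02 without control aHFSC. Control tHFSC has no background flag, but its -6.43 lay below the lowest signal well above background held for that array, -4.44. The tHFSC pair is therefore set against a reading at background. The other Prkcz probes gave -1.26 and -0.80, and the mean of the probes -0.17. With their brightest probes the other 8 members differed by -0.68 (Prkca) to 0.28 (Pard6g). In aged HFSC (0%) Prkca differed by 1.38 ± 0.48 (adjusted p = 0.335) and Prkci by 0.73 ± 0.30 (adjusted p = 0.397) from WT, both higher in 2 of 2 pairs. For Pard6b neither aged pair was measured on both sides and both aHFSC values were at background, so no difference is given; in tHFSC, WT was at least 1.21-fold above transgenic. With their brightest probes the other 7 members differed by -0.61 (Pard3b) to 0.99 (Prkcz). Of the 2 Prkcz pairs 1 was measured on both sides, at -0.83. Without aged WT aHFSC, which was at background, the Prkcz value was -0.89. Members with an unadjusted p under 0.05 were 1 in young and 2 in aged HFSC, beside 2146 and 3797 of all 31552 genes. The aged transgenic arrays are those with the fewest detected probes; over all genes that comparison had a median of -0.23, which quantile normalization moved by 0.21. With the second Prkca probe alone, the only 1 in every scanner file, the aged difference turned to -1.34.

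Between aged and young HFSC, which also differ in slide, no member passed beside 0.0317% of all genes (0.0158% higher, 0.0158% lower). Prkci differed by 0.56 ± 0.22 (adjusted p = 0.358), higher in 3 of 4 pairs, and 1 member and 3901 genes had an unadjusted p under 0.05. The other 9 differed by -1.30 (Pard6b, with no pair measured on both sides) to 0.47 (Prkca). In IFE, where both ages share a slide, 0% of all genes passed for age and 0% for the transgene. Members with an unadjusted p under 0.05 were 1 and 0, beside 1992 and 1715 genes. Prkca was lower in aged IFE in 2 of 2 pairs (-1.40 ± 0.48, adjusted p = 0.750). That value was -0.87 without young hCOL17A1 IFE, which stands apart, and the second Prkca probe gave -0.16 ± 0.74 with 1 of 2 pairs lower. The other 9 members differed by -1.05 (Pard6b) to 1.05 (Prkcd). The transgene comparison in IFE gave -0.87 ± 0.45 for Pard3 and -0.99 ± 0.61 for Prkcd, both largest in size in the young pair that holds the array standing apart. Their other probes ran from -0.31 to 1.08 (Pard3) and gave 0.04 (Prkcd). The other 8 members differed by -0.61 (Pard3b) to 0.54 (Pard6g). In the Col17a1 cKO 0% of all genes and no member passed, and no member but 1264 genes had an unadjusted p under 0.05. The largest member difference was that of Prkch, 1.11 ± 0.77. It was 0.24 without control tHFSC and 1.98 without control aHFSC. The other 9 differed by -0.63 (Pard3b) to 0.32 (Prkca). A change of the state difference with age passed for no member and for 0% of all genes (limma). No member and 1960 genes had an unadjusted p under 0.05. Member differences ran from -1.97 (Prkcz) to 1.30 (Prkcd). The Prkcz value was -0.16 without aged WT tHFSC, whose aHFSC partner was at background.

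**Figure D4:**
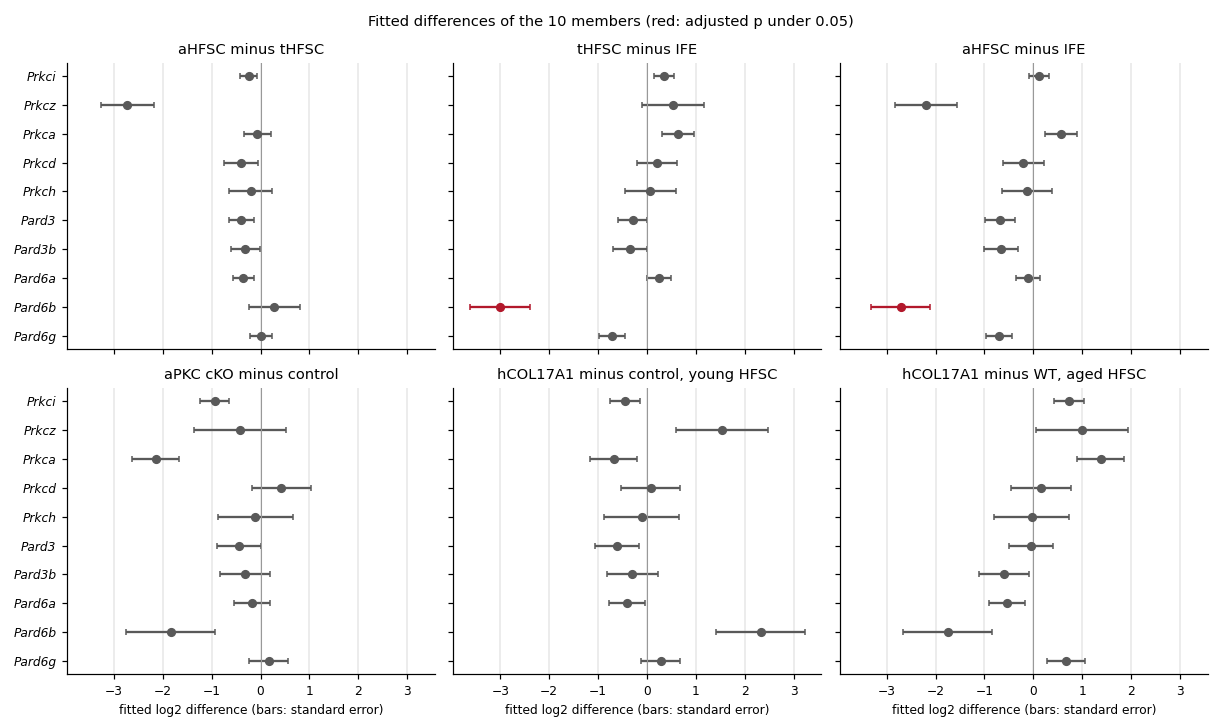
Fitted log2 differences of the 10 members in 6 comparisons, with bars of 1 standard error, red where the adjusted p was under 0.05. Pard6b is red at -3.003 and -2.72 against IFE, and Prkcz lies at -2.72 in aHFSC minus tHFSC without passing. The Pard6b point of aged HFSC rests on readings at background.

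A list of 65 related polarity and PKC pathway genes, 64 of them measured, was read in the same fit. In aHFSC against tHFSC none passed, beside 0.539% of all genes, with a median of -0.04. In tHFSC against IFE 3 were higher and 5 lower (12.5%, beside 6.48% of all genes), with a median of -0.13. Those with large differences included Gnai1, the G protein subunit that anchors the spindle orientation complex at the cortex (-2.42 ± 0.29, adjusted p = 0.00287), Dlg2 of the discs large family (-2.33 ± 0.42, 0.0146) and the Crumbs complex scaffold Patj (1.64 ± 0.30, 0.0160). Gnai1 and Dlg2 were lower in 4 of 4 pairs, and Patj higher in 3 of 4. Marcks was also higher, and Mark2, Stk11 and Ywhae were also lower.

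In aHFSC against IFE 2 of the 64 were higher and 4 lower (9.38%, beside 4.31% of all genes), with a median of -0.15. Gnai1 (-2.89 ± 0.29, adjusted p = 0.00131) and Dlg2 (-2.39 ± 0.42, 0.0171) were again lower in 4 of 4 pairs. The PKC substrate Marcks was higher in 4 of 4 (1.52 ± 0.20, 0.00455) and its relative Marcksl1 in 3 of 4 (1.81 ± 0.42, 0.0473). Mark2 and Stk11 were the other 2 that were lower. Both comparisons share the IFE arrays. The Gnai1 calls were lost in 1 of 28 alternatives each, that of Marcks in aHFSC in 1 of 28, and that of Marcksl1 in 20 of 28. No related gene passed in the other comparisons, where 0% to 0.539% of all genes did. In the aPKC cKO the list median was -0.08, with 23 of 64 positive, beside a median of 0.04 and 53.9% positive over all genes.

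Among the genes whose level followed a member most closely over the 16 arrays were Ids (r = 0.88) and Swt1 (0.87) for Prkci, Chd9 (0.92) and Gstp2 (0.89) for Prkca, and Tanc1 (0.86) and Inpp5a (0.81) for Prkcz. For Prkcd they were Gatad2b (0.82) and Miip (0.81), and for Prkch 9630013D21Rik (0.82) and Napg (0.79). For Pard3 they were Ednrb (0.89) and Vav3 (0.80), for Pard3b Myt1l (0.88) and Gm21637 (0.87), and for Pard6a Tmem132b (0.86) and Zfhx2 (0.83). For Pard6b they were Slc9a7 (0.90) and Sema3f (0.88), and for Pard6g Rpl13a (0.95) and Gas5 (0.93). Each is the Pearson r, highest of 17872 genes compared, a description of 16 arrays that share scaling. Between members the lowest r was that of Prkca and Prkcd (-0.40).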

How the data were processed

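Amplified cDNA from sorted cells was hybridised to 16 one-colour Agilent arrays. The processed signal in the scanner files is an intensity that, per the file headers, Agilent Feature Extraction 11.5.1.1 corrected for background on a design of build mm9. A deposited value table holds log2 values, which equal log2 of the processed signal minus the array's 75th percentile to within rounding on 15 arrays. On young control tHFSC 99.65% of probes agree within 0.02 after centring, and the largest deviation is 0.364.

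Here log2 of the processed signal minus each array's 75th percentile was used, without control and outlier spots. Of 55681 probes, 49826 were well above background on at least 2 arrays, and the brightest probe stood for each of 31552 genes. The young control tHFSC file holds 46417 probes, and 9264 were filled from the value table. No spot was saturated.

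The fit was limma 3.58.1 in R 4.3.3 (lmFit, eBayes with trend, two-sided, Benjamini-Hochberg over all genes, threshold 0.05), with terms for 6 HFSC conditions, a common aHFSC shift, and IFE level, age and transgene, leaving 6 residual degrees of freedom (5 with a state-by-age term). It was tested on simulated data. Lower bounds on folds set the brighter array against the lowest signal well above background on the dimmer array, or the dim probe's own if higher. The number of arrays limits the precision. Members are named in each comparison by value or by the range of the rest, related genes up to 4 a comparison by size of difference among those passing (1 is not reported here), and the 2 genes most like each member. The members, lists and comparisons were chosen with earlier results of these data known. Alternatives are given in the closing section; the fit of each probe on its own was chosen after seeing the data.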

Additional observations from a re-analysis of the deposited data

Results flagged for a closer look

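For Prkci and the brighter Prkca probe the transgene difference was negative in both young HFSC pairs and positive in both aged pairs. The aged minus young difference of that effect was 1.18 ± 0.43 for Prkci (adjusted p = 0.414) and 2.06 ± 0.68 for Prkca (0.395), neither past the threshold in limma. The second Prkca probe did not share this: its transgene difference was 0.37 in young HFSC, with 1 of 2 pairs higher, and -1.34 in aged HFSC, lower in 2 of 2. The young pairs compare with RU486-treated controls on slide 1, and the aged pairs lie on slide 2 and include the 2 arrays with the fewest detected probes; the part of these in the differences was not tested. For Pard6b the fitted value was -4.08 ± 1.28 (adjusted p = 0.381), but neither aged pair was measured on both sides and the aged aHFSC pair sets 1 background reading against another, so its sign and size are not interpretable.

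With its brighter probe, Prkcd was lower in aHFSC than in tHFSC in all 4 young conditions, by under 0.01 in the aPKC cKO, and higher in both aged conditions. The difference between ages was 1.30 ± 0.64 (adjusted p = 0.825), and 0.03 ± 0.93 with the second probe, which was lower in aged WT and higher in aged hCOL17A1.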

How the results depend on the processing

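Over 29 alternatives, no difference that passed turned its sign, and of 3376 refitted differences of members and named related genes 167 turned theirs, all of differences that had not passed in the report. Members called between aHFSC and tHFSC, 0 in the report, were 1 with normexp (Prkcz). Members called between tHFSC and IFE, 1 in the report, were 2 with quantile normalization (Pard6b and Prkci) and 0 within slide 2, with slide as a block and without the 2 arrays that stand apart. They were also 0 with only probes well above background on every array and with only probes in all 16 scanner files, where Pard6b has no probe. Leaving out 1 array gave 0 to 1. Members called between aHFSC and IFE, 1 in the report, were 2 with the mean of a gene's probes (Pard6b and Prkcz) and 0 without a trend, with unpaired arrays of the comparison only, within slide 2, with slide as a block, without the 2 arrays, and with the 2 filters that drop Pard6b. Leaving out 1 array gave 0 to 1; without aged WT tHFSC it was Prkcz (-2.35, adjusted p = 0.0106) that passed and not Pard6b. In other comparisons no member was called in any alternative that could be fitted. The quantile alternative moved the median of all genes by 0.15 for aHFSC against IFE, 0.21 for the transgene in aged HFSC and -0.12 for the transgene in IFE, and normexp by 0.26 for the transgene in aged HFSC and 0.16 for age in HFSC. The report's fit pairs tHFSC with aHFSC by condition, and no block by replicate number could be fitted, since each group has 1 array.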
